A study of Mus musculus with 6 samples.

Results

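The genes described here encode the inward-rectifier, two-pore-domain and calcium- or sodium-activated potassium channels, with the beta subunits of the BK channel. They were chosen by symbol (*Kcnj*, *Kcnk*, *Kcnma*, *Kcnmb*, *Kcnn*, *Kcnt* or *Kcnu* followed by a number), which took 41 of the 21667 named genes in the data. RNA was sequenced from the somatosensory cortex of 3 control mice (*Mef2c* fl/fl) and 3 *Mef2c* cKO mice (*Mef2c* fl/fl; Emx1-Cre). All were adult males of a mixed SVeV-129 and C57BL/6J background, and in both genotypes replicate 1 was 14 weeks old and replicates 2 and 3 were 12 weeks old. Both genotypes carried the floxed *Mef2c* alleles and only the cKO mice carried Cre, which per the study was inserted into *Emx1* and is active from embryonic life in most forebrain excitatory neurons and in some glia. The labels describe 3 independent replicates per genotype and the study calls the controls littermates, without saying which mice shared a litter, so the p-values measure the spread between these 6 mice.

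These channels share a task and differ in what opens them. Inward rectifiers pass potassium most easily near and below the resting potential, two-pore channels carry background potassium current at all voltages, and the calcium- and sodium-activated channels open as those ions enter the cell. In cortical neurons they set the resting potential, the input resistance and the pause after a spike, and in astrocytes they carry potassium away from active neurons. Most are tetramers or dimers, so the mixture of subunits matters as well as the amount of each.

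The level of a gene is given in CPM, the reads on the gene per 1000000 reads of that mouse. The reads were recovered from the deposited RPKM values, and this gave a count, which could be 0, for every channel gene in all 6 mice. The recovered depth ran from 34011091 to 51542029 reads per control mouse and from 19326365 to 54128334 per *Mef2c* cKO mouse. A gene was tested when all mice of either genotype had more than 0.5 CPM of it, which kept 14618 genes. A gene was called when limma, fitted to log2(CPM + 0.1) over all these genes, gave a Benjamini-Hochberg adjusted p under 0.05 and an absolute log2 fold change (log2FC) above 0.3. Fold changes are *Mef2c* cKO over control, so a negative log2FC is a lower level in the cKO.

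*Mef2c* itself was at 800.3, 771.8 and 800.2 CPM in the control mice and at 1231, 1276 and 1468 CPM in the cKO mice (log2FC = 0.74, SE = 0.08, adjusted p = 1.8e-04). This count runs over all exons of the gene, including those outside the floxed part, so it checks nothing about the deletion. *Emx1*, the gene that holds Cre, was at 16.5, 20.3 and 18.8 CPM in the controls and 5.71, 4.97 and 5.10 CPM in the cKO mice, and separated the genotypes as labelled. All 12 markers of pyramidal neurons were present in the tissue, with none at 0.

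The genotypes differed in 7 of the 31 channel genes that could be tested. A decreased expression level was found for *Kcnk4*, *Kcnt2*, *Kcnj12*, *Kcnj16*, *Kcnj4* and *Kcnj9*, and an increased expression level for *Kcnj6*. The share was 22.6%, beside 13.7% of all tested genes called in either direction, 7.78% lower and 5.88% higher. Of the 31, 23 had a negative and 8 a positive log2FC, with a median of -0.07 beside 0.01 over all tested genes. The genotypes did not overlap in 10 channel genes (8 lower and 2 higher in the cKO), while 33.8% of all tested genes did not overlap, 17.5% lower and 16.3% higher. The share without overlap among the channels was thus close to that of all genes. The median standard error of the log2FC was 0.11 for the channel genes and 0.09 for all genes. Since whole tissue was sequenced, fewer cells of a type and less RNA per cell cannot be told apart in any of these values.

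**Figure D1:**
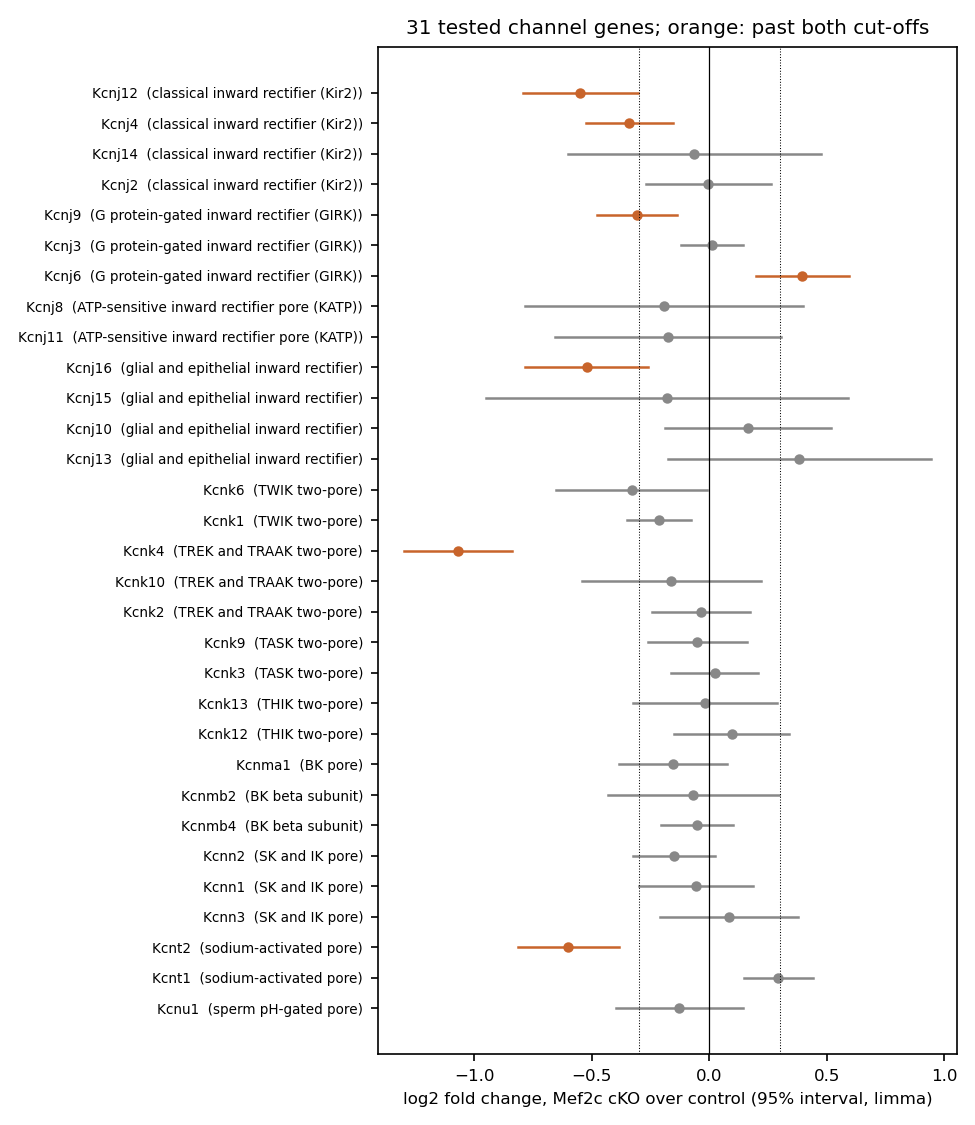
log2 fold change (*Mef2c* cKO over control) with its 95% interval from limma for the 31 tested channel genes, grouped by class; orange marks the 7 genes past both cut-offs and the dotted lines the fold change cut-off of 0.3. *Kcnk4* lies furthest to the left at -1.07, and *Kcnj6* is the only orange point to the right of 0.

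The promoters of 3 decreased genes are shown because they are those of the tested channel with the largest decrease and of the channels that hold a match to the MEF2 site, the 10-base pattern that MEF2 proteins bind, which reads the same on both strands and so covers both. They are the 250 bases before a RefSeq start of each gene in build GRCm38.p6, written in the direction of the gene, with the MEF2 site in capitals. That of *Kcnj9* is on the minus strand at chr1:172329323-172329572, that of *Kcnj16* on the plus strand at chr11:110967783-110968032, and that of *Kcnk4* on the minus strand at chr19:6934516-6934765, where no match was found. RefSeq gives *Kcnj16* 4 starts, and only the one shown had a match in its window.

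Kcnj9: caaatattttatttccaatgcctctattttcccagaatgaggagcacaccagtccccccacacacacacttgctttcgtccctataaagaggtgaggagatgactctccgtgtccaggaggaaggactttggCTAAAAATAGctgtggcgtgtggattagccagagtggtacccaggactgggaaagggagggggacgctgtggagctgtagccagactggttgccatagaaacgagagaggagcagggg

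Kcnj16: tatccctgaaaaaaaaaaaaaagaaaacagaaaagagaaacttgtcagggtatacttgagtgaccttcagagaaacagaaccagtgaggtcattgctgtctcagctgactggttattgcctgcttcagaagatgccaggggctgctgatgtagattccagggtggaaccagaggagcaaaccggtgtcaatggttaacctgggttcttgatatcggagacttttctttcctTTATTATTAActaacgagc

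Kcnk4: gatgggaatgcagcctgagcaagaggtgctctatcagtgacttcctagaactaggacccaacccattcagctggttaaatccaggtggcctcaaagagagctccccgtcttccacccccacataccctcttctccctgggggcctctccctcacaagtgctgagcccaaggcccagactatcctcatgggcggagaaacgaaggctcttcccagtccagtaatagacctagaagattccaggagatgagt

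The site of *Kcnj9* reads CTAAAAATAG and ends 108 bases before the start, and that of *Kcnj16* reads TTATTATTAA and ends 9 bases before it. Within windows of 250 bases before to 50 bases after the start, 2 of the 33 channel genes with a RefSeq promoter held the pattern (6.06%), beside 3.70% of 27025 genes. Among tested genes with a promoter in the table, it was present in 3.58% of 837 genes lower in the cKO, 1.15% of 608 higher and 2.17% of 9663 others. The match is a match of letters and not a measured binding site, and these shares were not tested.

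The two-pore channels are dimers of subunits that each carry a pair of pore loops. *Kcnk4* encodes TRAAK, a channel of axons and nodes of Ranvier that opens to membrane stretch and to fatty acids. It was at 23.0, 22.8 and 22.3 CPM in the control mice and at 10.02, 12.4 and 10.05 CPM in the *Mef2c* cKO mice. Every cKO mouse was far below every control, and the controls spanned only 0.681 CPM. The mean fell from 22.7 ± 0.348 to 10.8 ± 1.38 CPM (SD, n = 3 each; log2FC = -1.07, SE = 0.10, adjusted p = 1.3e-04 by limma). The gene, on the minus strand of chromosome 19 at 7000200 to 7009005 (mm9), had 782, 1125 and 1150 reads in the controls and 328, 240 and 544 in the cKO mice.

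The relatives of TRAAK were not called. *Kcnk2* (TREK-1), another stretch-gated channel, was at 67.8 ± 6.95 CPM in controls and 66.2 ± 6.40 CPM in cKO mice (log2FC = -0.03, 95% interval -0.24 to 0.18). *Kcnk10* (TREK-2) was at 6.52 ± 1.52 and 5.74 ± 0.560 CPM, with an interval of -0.54 to 0.22. The ratio of *Kcnk4* to *Kcnk2* within a mouse, each level divided by the length of its exons, went from 0.711 ± 0.066 in the controls to 0.347 ± 0.053 in the cKO, without overlap (exact two-sided permutation p = 0.1, the smallest that 3 mice against 3 can give). It holds *Kcnk4*, which was called on its own, so the ratio restates that call and is not separate evidence.

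Of the TWIK channels, *Kcnk1* (TWIK-1), a weak rectifier found in neurons and astrocytes, was at 117.4 ± 6.30 CPM in controls and 101.1 ± 3.47 CPM in cKO mice. Its adjusted p was 0.041, and its log2FC of -0.21 stayed inside the cut-off of 0.3. *Kcnk6* (TWIK-2) did not overlap between genotypes either, at 6.22 ± 0.578 and 4.95 ± 0.703 CPM, but did not pass (log2FC = -0.33, adjusted p = 0.16). The TASK channels, which are shut by acid and opened by volatile anesthetics, were not called. *Kcnk3* (TASK-1) was at 26.8 ± 1.88 and 27.2 ± 1.68 CPM (log2FC = 0.02, interval -0.16 to 0.21), and *Kcnk9* (TASK-3) at 21.2 ± 0.608 and 20.5 ± 2.25 CPM (log2FC = -0.05, interval -0.26 to 0.16). The THIK genes were not called either. *Kcnk12* (THIK-2) was at 15.8 ± 2.05 and 16.8 ± 0.922 CPM (log2FC = 0.10), and *Kcnk13* (THIK-1), the background channel of microglia, at 8.10 ± 1.37 and 7.91 ± 0.156 CPM (log2FC = -0.02). Of 12 microglia markers 0 were called by limma, with 3 at an unadjusted p under 0.05 (2 with voom weights), all lower in the cKO. In all, 1 of the 9 tested two-pore genes was called (11.1%), near the 13.7% of all tested genes.

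The classical inward rectifiers (Kir2) hold the resting potential of neurons and are blocked from inside by polyamines. *Kcnj12* (Kir2.2) was at 10.3, 10.001 and 9.89 CPM in the control mice and 6.35, 6.62 and 7.65 CPM in the cKO mice. The highest cKO mouse stayed below the lowest control, and the mean fell from 10.1 ± 0.221 to 6.87 ± 0.684 CPM (log2FC = -0.55, SE = 0.11, adjusted p = 0.0076). *Kcnj4* (Kir2.3), the most abundant of the class, was at 70.7, 78.3 and 68.7 CPM in controls and 55.4, 53.2 and 63.5 CPM in cKO mice. The nearest mice of the groups, control replicate 3 and cKO replicate 3, were 5.17 CPM apart (log2FC = -0.34, SE = 0.08, adjusted p = 0.021). This call was lost without control replicate 2 (log2FC = -0.28, adjusted p = 0.08), without cKO replicate 1 (-0.32, 0.068) and without cKO replicate 2 (-0.29, 0.074).

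*Kcnj2* (Kir2.1) was at 21.3 ± 1.06 and 21.5 ± 3.67 CPM (log2FC = -0.00, interval -0.27 to 0.26). *Kcnj14* (Kir2.4) was low, at 3.39 ± 0.308 and 3.37 ± 1.12 CPM, with an interval of -0.60 to 0.47. Per kilobase of exon, the class summed to 42.6 ± 2.33 CPM in controls and 34.4 ± 3.56 CPM in cKO mice, without overlap. Within each mouse the ratio of *Kcnj12* to *Kcnj2* went from 0.937 ± 0.069 to 0.639 ± 0.042, and that of *Kcnj4* to *Kcnj2* from 8.63 ± 0.648 to 6.84 ± 0.594, both per length and both without overlap. Since *Kcnj12* and *Kcnj4* were called on their own, these ratios restate those calls. *Kcnj12* lies at 60836066 to 60884633 on chromosome 11 and *Kcnj4* at 79314148 to 79335671 on chromosome 15 (mm9).

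The GIRK channels open when the beta and gamma subunits of a Gi or Go protein bind them, and carry the slow inhibition set off by GABA, serotonin, adenosine, acetylcholine and opioids. *Kcnj6* (GIRK2), the subunit that can form channels on its own, was at 98.4, 96.7 and 110.5 CPM in the control mice and 144.1, 141.2 and 117.9 CPM in the cKO mice. Replicates 1 and 2 of the cKO stood well above the controls, and replicate 3 was 7.38 CPM above the highest of them. The mean rose from 101.8 ± 7.52 to 134.4 ± 14.4 CPM (log2FC = 0.40, SE = 0.09, adjusted p = 0.014). The call was lost without control replicate 1 (log2FC = 0.37, adjusted p = 0.052), control replicate 2 (0.36, 0.056), cKO replicate 1 (0.34, 0.051) or cKO replicate 2 (0.36, 0.052), each just past the threshold of 0.05.

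*Kcnj9* (GIRK3), which forms channels only together with other GIRK subunits, moved the other way. It was at 192.0, 219.9 and 187.8 CPM in controls and 151.8, 159.9 and 171.7 CPM in cKO mice. The lowest control lay 16.1 CPM above the highest cKO mouse, and the mean fell from 199.9 ± 17.4 to 161.2 ± 9.98 CPM (log2FC = -0.31, SE = 0.08, adjusted p = 0.022). The log2FC was close to the cut-off, and the call was lost without control replicate 2 (-0.24, adjusted p = 0.07), cKO replicate 1 (-0.27, 0.075) or cKO replicate 2 (-0.30, 0.062).

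*Kcnj3* (GIRK1), the usual partner of both, was at 82.2 ± 1.72 and 83.0 ± 4.02 CPM (log2FC = 0.01, interval -0.12 to 0.15). An antisense lincRNA, *Gm17595*, overlaps 31.1% of the *Kcnj3* exons, and the strand setting of the counting is not given in the sources used here, so reads of these genes may not be told apart. *Kcnj5* (GIRK4), best known from the heart, was under the filter, with 15, 44 and 20 reads in the controls and 2, 1 and 4 in the cKO mice. Its range was 0.388 to 0.891 CPM in controls and 0.052 to 0.074 CPM in cKO mice, without overlap. With no filter on low values limma gave it a log2FC of -1.98 (SE = 0.30, adjusted p = 0.033).

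The GIRK mixture per length differed between the genotypes. The ratio of *Kcnj6* to *Kcnj9* was 0.287, 0.246 and 0.330 in the controls and 0.532, 0.494 and 0.384 in the cKO mice. The ratio of *Kcnj6* to *Kcnj3* went from 1.11 ± 0.064 to 1.45 ± 0.207 and that of *Kcnj9* to *Kcnj3* from 3.88 ± 0.422 to 3.10 ± 0.106. None of these ratios overlapped (exact two-sided permutation p = 0.1 each, the smallest possible). Each holds *Kcnj6* or *Kcnj9*, which were called on their own, so the ratios restate those calls and are not separate evidence. *Kcnj9* remained the most abundant GIRK gene per length in both genotypes, at 61.1 CPM per kb in controls and 49.3 in cKO mice. In the cKO *Kcnj6* followed at 23.0 and *Kcnj3* at 15.9 CPM per kb, while in the controls these were at 17.4 and 15.8, closer together. The GIRK genes made up 20.51% of the summed level per length of all 41 genes in the controls and 20.51% in the cKO.

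**Figure D2:**
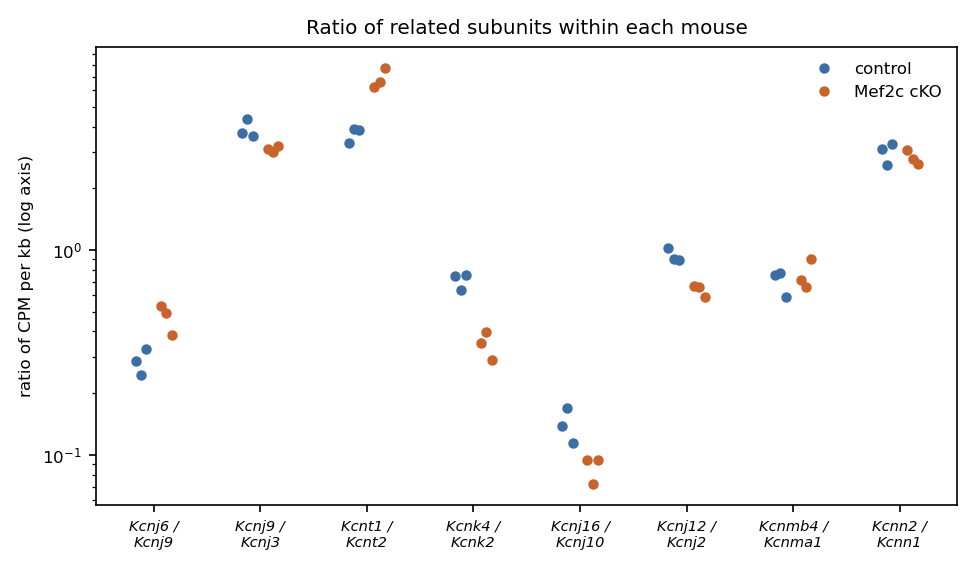
Ratio of the levels per length of related subunits within each mouse, on a log axis, for 8 of the 11 pairs computed; each point is a mouse, blue for control and orange for *Mef2c* cKO. The genotypes are apart for *Kcnj6* over *Kcnj9*, *Kcnj9* over *Kcnj3*, *Kcnt1* over *Kcnt2*, *Kcnk4* over *Kcnk2*, *Kcnj16* over *Kcnj10* and *Kcnj12* over *Kcnj2*, and overlap for the BK pair and the SK pair on the right. Every pair that is apart holds a called gene, and the BK and SK pairs hold none.

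The receptors that open GIRK channels and the proteins that time their closing were examined with them. Of 16 tested receptors limma called 5 (31.2%, beside 13.7% of all tested genes), all higher. At an unadjusted p under 0.05, 7 were higher and 2 lower. The largest increases were those of *Htr1a*, the serotonin 1A receptor (11.5 ± 1.35 to 27.0 ± 1.36 CPM, log2FC = 1.23, adjusted p = 5.7e-05), *Oprk1*, the kappa opioid receptor (4.84 ± 2.18 to 9.84 ± 1.12 CPM, 1.09, 0.019), and *Chrm2*, the M2 muscarinic receptor (9.63 ± 1.19 to 19.3 ± 1.27 CPM, 1.00, 3.1e-04). The GABA-B receptor subunits were not called, with *Gabbr1* at a log2FC of -0.11 and *Gabbr2* at -0.21.

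Of 19 tested G protein and RGS genes limma called 5 (26.3%, beside 13.7% of all tested genes), all lower. At an unadjusted p under 0.05, 5 were lower and 1 higher. The called genes encode RGS proteins, which speed the hydrolysis of GTP on the alpha subunit and so shorten GIRK currents. *Rgs4* fell from 641.8 ± 48.3 to 268.5 ± 13.8 CPM (log2FC = -1.26), *Rgs6* from 83.3 ± 11.9 to 37.6 ± 3.76 CPM (-1.14) and *Rgs7* from 136.5 ± 17.7 to 77.7 ± 5.14 CPM (-0.81), with adjusted p of 6e-06, 1.4e-04 and 4.1e-04. *Gnb5*, the beta subunit that binds *Rgs6* and *Rgs7* proteins, was at a log2FC of 0.05.

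**Figure D3:**
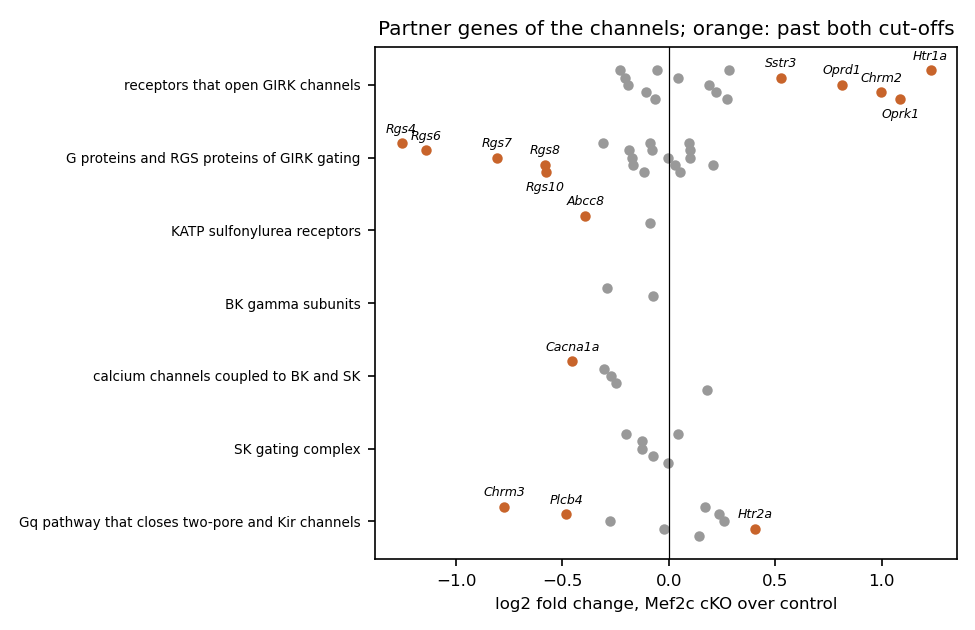
log2 fold change (*Mef2c* cKO over control) of each tested partner gene of the channels, by list; each point is a gene, orange when past both cut-offs. Of the GIRK receptors 5 lie to the right in orange, and of the G protein and RGS genes 5 lie to the left.

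The inward rectifiers of glia and epithelia had 1 decreased gene of 4 tested, too few to compare with the 7.78% of all tested genes that were lower. *Kcnj16* (Kir5.1) makes a channel that senses pH together with Kir4.1, the product of *Kcnj10*. It was at 26.6, 22.8 and 19.7 CPM in the control mice and 14.6, 16.5 and 16.8 CPM in the cKO mice. The controls spanned 6.91 CPM, and the lowest was still 2.98 CPM above the highest cKO mouse. The mean fell from 23.1 ± 3.46 to 15.9 ± 1.15 CPM (log2FC = -0.52, SE = 0.12, adjusted p = 0.014), and the call was lost without cKO replicate 1 (log2FC = -0.46, adjusted p = 0.052).

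*Kcnj10*, the main potassium channel of astrocytes, was at 264.9, 184.2 and 238.2 CPM in controls and 213.7, 314.3 and 243.0 CPM in cKO mice, so the groups overlapped widely (log2FC = 0.16, interval -0.19 to 0.52). The ratio of *Kcnj16* to *Kcnj10* per length went from 0.141 ± 0.028 to 0.087 ± 0.013 without overlap. It holds *Kcnj16*, which was called on its own, and is not separate evidence. Of 12 astrocyte markers 1 was lower (*Aldh1l1*, log2FC = -0.39) and 2 were higher (*Gfap*, 1.37, and *Aqp4*, 0.73), and none was at 0. The called share was 25.0%, beside 13.7% of all tested genes. Of the 12, 7 had a negative and 5 a positive log2FC, with a median of -0.05. Their summed level was 6192 to 6434 CPM in controls and 5604 to 5898 CPM in cKO mice. More of it came from *Slc1a2* than from any other marker, and *Slc1a2*, not called, was at 3407 ± 150 and 2864 ± 139 CPM. The part of astrocytes in the result for *Kcnj16* was not tested. *Kcnj13* (Kir7.1, at 0.522 ± 0.161 and 0.695 ± 0.039 CPM) shares 49.1% of its exons with *Gigyf2* on the other strand and is uncertain. *Kcnj15* (Kir4.2) was at 0.836 ± 0.220 and 0.765 ± 0.375 CPM, and *Kcnj1* (ROMK), a channel of the kidney tubule, had 1 read over the control mice and 1 over the cKO mice.

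The KATP channels open when ATP runs low and are built of a Kir6 pore and a sulfonylurea receptor. Neither pore was called, with *Kcnj11* (Kir6.2) at 37.2 ± 7.06 and 33.8 ± 11.8 CPM (log2FC = -0.18, interval -0.66 to 0.31) and *Kcnj8* (Kir6.1), a gene of pericytes and vascular smooth muscle, at 2.20 ± 0.603 and 1.93 ± 0.564 CPM. The receptor subunit SUR1, encoded by *Abcc8*, fell from 54.9 ± 3.55 to 41.7 ± 1.83 CPM (log2FC = -0.39, adjusted p = 0.0048), while *Abcc9* (SUR2) was at a log2FC of -0.09.

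The sodium-activated channels held the second largest decrease among the tested genes. *Kcnt2* (Slick), which is inhibited by ATP inside the cell, was at 51.9, 51.8 and 48.0 CPM in the control mice and 36.5, 35.4 and 28.7 CPM in the cKO mice. The highest cKO mouse was 11.6 CPM below the lowest control (mean 50.6 ± 2.20 to 33.5 ± 4.21 CPM, log2FC = -0.60, SE = 0.10, adjusted p = 0.0024). *Kcnt1* (Slack), its relative and partner in mixed channels, was at 222.8 ± 17.0 CPM in controls and 272.6 ± 6.22 CPM in cKO mice, also without overlap but higher in the cKO. Its adjusted p was 0.014, and its log2FC of 0.29 stayed just inside the cut-off. Without control replicate 2 (log2FC = 0.35, adjusted p = 0.0099) or cKO replicate 3 (0.31, 0.029) *Kcnt1* passed both cut-offs.

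Per length the ratio of *Kcnt1* to *Kcnt2* was 3.32, 3.87 and 3.85 in the controls and 6.24, 6.56 and 7.74 in the cKO mice (log2 difference of the means 0.89, second in size among the 11 pairs to that of *Kcnk4* to *Kcnk2*, -1.04). It holds *Kcnt2*, which was called on its own, and is not separate evidence. The summed level of *Kcnt1* and *Kcnt2* per kilobase overlapped between genotypes, at 37.7 ± 2.31 and 41.6 ± 1.43 CPM. In plain CPM their sum was 258.3 to 292.3 in controls and 294.9 to 314.0 in cKO mice, without overlap. *Kcnt2* lies at 142142793 to 142508640 on chromosome 1 and *Kcnt1* at 25719315 to 25773793 on chromosome 2 (mm9).

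**Figure D4:**
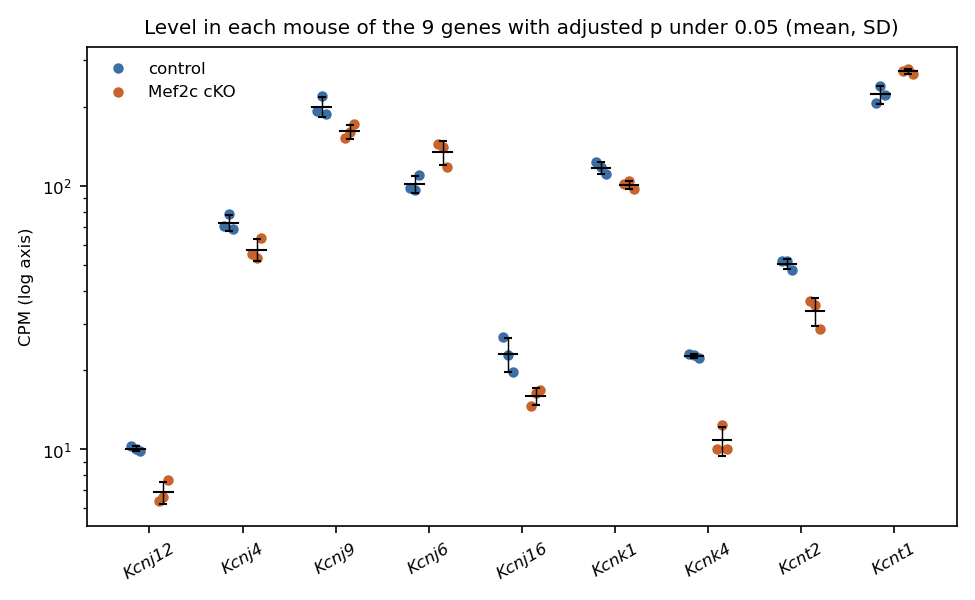
CPM in each mouse, on a log axis, of the 9 channel genes with adjusted p under 0.05; bars give the mean and SD of 3 mice. In all 9 genes the control points (blue) and *Mef2c* cKO points (orange) do not overlap, with *Kcnj6* and *Kcnt1* the only ones higher in the cKO. The genes were chosen by that adjusted p, which 16.3% of all tested genes had, so this separation largely follows from the choice.

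By limma 0 of the 7 tested BK, SK and sperm channel genes were called, with 0 at an unadjusted p under 0.05, also with voom weights. Of all tested genes 13.7% were called. The BK channel opens to calcium and voltage together and shortens spikes. Its pore gene *Kcnma1* was at 187.8 ± 22.7 and 168.6 ± 18.2 CPM (log2FC = -0.15, interval -0.38 to 0.07), and its neuronal beta subunit *Kcnmb4*, which slows the channel, at 91.3 ± 3.03 and 88.2 ± 6.46 CPM (log2FC = -0.05, interval -0.20 to 0.10). Transcripts on the other strand overlap 20.8% of the *Kcnmb4* exons (*4933400F03Rik*) and 10.7% (*1700058G18Rik*). *Kcnmb2*, an inactivating beta subunit, was at 6.64 ± 1.07 and 6.33 ± 1.06 CPM.

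The SK channels open to calcium alone through bound calmodulin and make the medium afterhyperpolarization. *Kcnn1* (SK1) was at 26.3 ± 1.99 and 25.4 ± 3.41 CPM (log2FC = -0.06), *Kcnn2* (SK2) at 73.5 ± 3.35 and 66.4 ± 6.26 CPM (log2FC = -0.15, interval -0.32 to 0.02), and *Kcnn3* (SK3) at 14.1 ± 1.36 and 15.03 ± 2.33 CPM (log2FC = 0.08). *Kcnu1*, the pH-gated channel of sperm, was read at 7.29 ± 0.320 and 6.69 ± 0.746 CPM (log2FC = -0.13).

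Partners of these channels were tested in the same fit. By limma 0 of the 6 genes of the SK gating complex passed both cut-offs, with 2 at an unadjusted p under 0.05, and 0 of 2 tested BK gamma subunits passed, with 0 at an unadjusted p under 0.05; limma with voom weights gave the same counts. Of 5 calcium channels that supply BK and SK channels, 4 lower and 1 higher had an unadjusted p under 0.05, and 1 passed both cut-offs. This was *Cacna1a* (P/Q type), which fell from 389.0 ± 26.4 to 284.0 ± 15.7 CPM (log2FC = -0.45, adjusted p = 0.0017). Of 9 genes of the Gq pathway, which closes some two-pore and Kir channels, 2 were called lower and 1 higher. That is 33.3%, beside 13.7% of all tested genes. At an unadjusted p under 0.05, 3 were lower and 4 higher. *Chrm3*, the M3 muscarinic receptor, was lower (91.9 ± 8.02 to 53.8 ± 6.48 CPM, log2FC = -0.77, adjusted p = 5.5e-04), as was *Plcb4* (log2FC = -0.48, adjusted p = 9.8e-04), while *Htr2a*, the serotonin 2A receptor, was higher (18.6 ± 1.66 to 24.8 ± 3.65 CPM, log2FC = 0.41, adjusted p = 0.041).

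Under the filter lay 10 channel genes, none above 0.891 CPM in any mouse. Beside *Kcnj1* and *Kcnj5* these were *Kcnk5* (0.155 to 0.641 CPM over the 6 mice), *Kcnk18* (0.277 to 0.486 CPM), *Kcnmb1* (0.362 to 0.648 CPM), *Kcnn4* (0.265 to 0.621 CPM), and *Kcnk7*, *Kcnk15*, *Kcnk16* and *Kcnmb3*, which had between 0 and 11 reads in the sum of each genotype. They include the two-pore channels of sensory ganglia and pancreas (*Kcnk18*, TRESK, and *Kcnk16*, TALK-1), the smooth muscle beta subunit of BK (*Kcnmb1*) and the IK channel of blood cells (*Kcnn4*).

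Per length, *Kcnj9* had the highest mean level of the 41 genes in both genotypes. In the cKO it was not apart from *Kcnj10* beyond their spread (49.3 ± 3.05 and 47.5 ± 9.57 CPM per kb), and *Kcnj10* ranked first in cKO replicate 2. In the controls *Kcnk1* (51.0 CPM per kb), *Kcnj10* (42.4), *Kcnma1* (39.5), *Kcnj4* (33.8) and *Kcnt1* (29.6) followed. In the cKO the order after *Kcnj9* was *Kcnj10*, *Kcnk1* (43.9), *Kcnt1* (36.2), *Kcnma1* (35.5) and *Kcnj4* (26.7). From *Kcnk1* to *Kcnt1* in the controls, the mean ± SD of each gene overlapped that of the next. Their SDs were 2.74, 7.61, 4.77, 2.36 and 2.26 CPM per kb in the order given. Even so, every control mouse ranked *Kcnk1* above *Kcnj10*, *Kcnma1* above *Kcnj4* and *Kcnj4* above *Kcnt1*. In the cKO the mean ± SD overlapped for *Kcnj10* and *Kcnk1* and for *Kcnt1* and *Kcnma1*. *Kcnk4* went from rank 13 to rank 16, and *Kcnj6* from rank 11 to rank 8.

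Summed over all 41 genes, the level per kilobase was 460.5 ± 4.29 CPM in controls and 430.4 ± 16.1 CPM in cKO mice, without overlap (exact two-sided permutation p = 0.1). The classes whose sums were lower in the cKO without overlap were Kir2, GIRK (94.5 ± 4.30 to 88.2 ± 1.80), TWIK (52.5 ± 2.75 to 45.2 ± 1.41) and TREK with TRAAK (34.0 ± 1.82 to 26.4 ± 1.77). The largest falls within them were, in that order, those of *Kcnj4* (33.8 to 26.7), *Kcnj9* (61.1 to 49.3), *Kcnk1* (51.0 to 43.9) and *Kcnk4* (13.2 to 6.31). Each sum mostly followed that gene. Within GIRK *Kcnj6* rose (17.4 to 23.0), and within Kir2 *Kcnj2* did not fall (3.92 and 3.94). Within TWIK the 2 tested genes were both lower without overlap. No class was higher without overlap on this scale. In plain CPM, where long genes weigh more, the sums over the 41 genes overlapped, at 1759 ± 15.5 and 1724 ± 81.9 CPM, as did those of the GIRK genes, at 373.5 to 397.8 CPM in controls and 374.4 to 386.4 CPM in cKO mice. In plain CPM the sums of Kir2, TWIK and TREK with TRAAK were again lower without overlap, and that of the sodium-activated channels was higher without overlap.

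**Figure D5:**
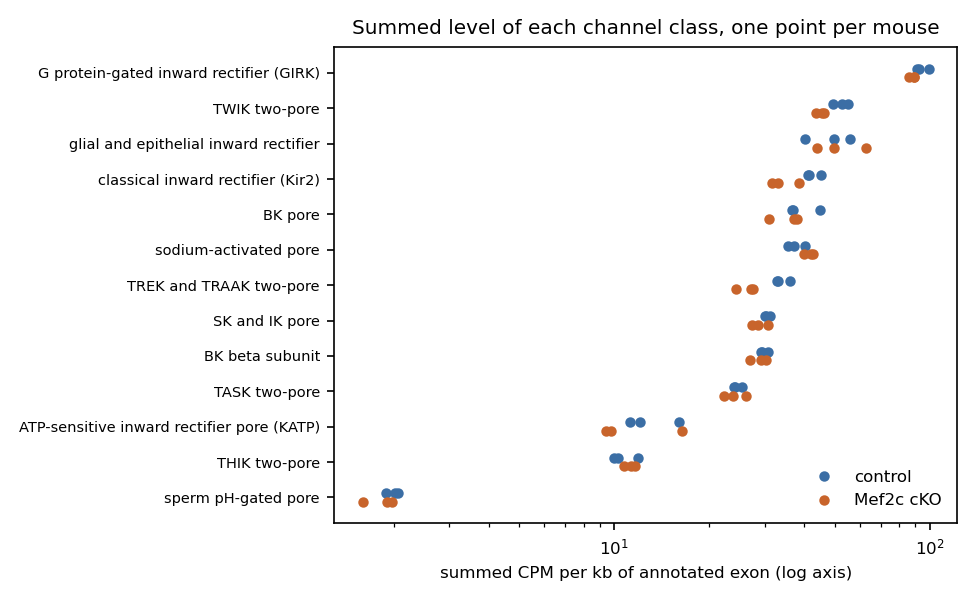
Summed CPM per kilobase of exon of each channel class, on a log axis, one point per mouse (blue control, orange *Mef2c* cKO); the TALK and TRESK classes, under 1 CPM per kb, are left out. GIRK genes hold the highest sum, at 94.5 in controls, and the TREK and TRAAK class shows the genotypes clearly apart, at 34.0 and 26.4. Most of that difference lies in *Kcnk4*, at 13.2 and 6.31 CPM per kb.

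Channel genes that lie next to each other were compared where one of them was called. *Kcnj9* and *Kcnj10* lie 11946 bases apart on chromosome 1 in opposite directions (log2FC = -0.31 and 0.16), *Kcnj16* and *Kcnj2* 38195 bases apart on chromosome 11 (-0.52 and -0.00), and *Kcnj6* and *Kcnj15* 259861 bases apart on chromosome 16 (0.40 and -0.18). In each pair the second gene was not called. *Kcnj9* lies at 174251164 to 174259394 on chromosome 1, *Kcnj16* at 110829347 to 110889282 on chromosome 11, and *Kcnj6* at 94970873 to 95219303 on chromosome 16 (mm9).

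Of the other potassium channel pores, which are mostly voltage-gated, 13 of 36 tested genes (36.1%, beside 13.7% of all tested genes) were called, all lower (median log2FC = -0.21). The difference between these and the channels described here was not tested. Among markers of cell classes, which share the tissue with the channels, 4 of 12 pyramidal neuron genes were lower and 4 higher, led by the upper-layer genes *Cux2* and *Rorb* (log2FC = -1.74 each) and by *Neurod6* (1.34). Of 12 interneuron markers *Pvalb* was lower (log2FC = -0.80) and 2 were higher, and of 12 oligodendrocyte markers 5 were higher, with summed levels of 3423 to 5502 CPM in controls and 5457 to 6987 CPM in cKO mice. By limma 0 of 12 markers of endothelial cells and pericytes were called, with 2 at an unadjusted p under 0.05, as with voom weights. The part of these shifts in the channel values was not tested.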

How the data were processed

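One table of gene expression in somatosensory cortex was analysed for each of 6 mice, 3 of each genotype. The paper gives polyA selection, a directional library, alignment to mm9 with TopHat and Bowtie and gene counts by HTSeq on a UCSC annotation; versions are not given in the sources used here. The deposited values are RPKM, which the authors computed from their counts. Groups, replicate numbers and ages came from the labels. The members, lists, cut-offs and alternatives were chosen with earlier results of these data known, and the method of recovering reads was settled after seeing the files.

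The RPKM of a gene was found to be divided by a length that differs between mice. In each table, genes ordered by Entrez ID share a recurring cycle of 130, 249 and 232 lengths (controls 1 to 3) and 130, 65 and 296 lengths (cKO 1 to 3). Reads and totals were recovered from these steps for at least 99.92% of named values above 0, summing to at least 99.96% of each total, which ranged from 19326365 to 54128334 reads. At low read numbers counting error limits the precision. Rows without a gene name (92 of each table) took 0.0528% to 0.0776% of the reads and stayed out of the tests. Reads over the total gave CPM. The recovery was tested on 6 simulated tables, where all 6 totals were found.

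log2(CPM + 0.1) was compared with limma 3.58.1 in R 4.3.3 (lmFit, eBayes with a variance trend) over 14618 genes with more than 0.5 CPM in every mouse of one genotype, and p-values were adjusted over all of them. Fold changes on this scale understate the change of low genes. Single values were compared by an exact two-sided permutation test. Levels per kilobase used the merged exons of the gencode annotation of the same build (NCBIM37), which is not the file the authors counted on. Every member was accounted for. Called members were given per mouse, other members by group means or range, and partner genes when past the cut-offs, at most 3 per list by size, with *Gabbr1*, *Gabbr2*, *Gnb5* and *Abcc9* added after their values were seen. A gene of the partner lists is not reported here. Promoters were those of RefSeq (GRCm38.p6), found for 33 of the 41 genes. Tables were handled with Python 3.11.15, numpy 2.4.6 and pandas 2.3.3, and plots with matplotlib 3.10.9.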

Additional observations from a re-analysis of the deposited data

How the results depend on the processing

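*Kcnk4* and *Kcnt2* kept their direction and call in all 15 alternatives run on CPM at the same cut-offs, and *Kcnj12* in 14, its call being lost in the 12-week mice alone (log2FC = -0.48, adjusted p = 0.076). *Kcnj16* kept its call in 12 of 15, *Kcnj9* in 9, and *Kcnj4* and *Kcnj6* in 8 each, and no called gene changed direction on CPM. In place of 7 called channel genes there were 4 with no filter on low values (*Kcnk4*, *Kcnt2*, *Kcnj12* and the otherwise untested *Kcnj5*), 4 with no variance trend, 1 at a fold change cut-off of 1 and 2 in the 12-week mice alone, where 2 mice per genotype remain. The 6 lower genes became 1 at the cut-off of 1 and 2 in the 12-week mice. The 1 higher gene became 0 under each of these 4 settings and 2 with no fold change cut-off. Leaving out 1 mouse gave 3 to 8 called genes (3 without cKO replicate 1, 4 without cKO replicate 2), 3 to 6 lower and 0 to 2 higher. The deposited RPKM values, fitted without recovering reads, gave 0 called channel genes of 18 tested, 0 lower and 0 higher, 14 of all genes and 0 of the partner and marker genes, and turned *Kcnt2* to a log2FC of 0.97; by construction these values carry a different length for a gene in each mouse. The 1996 called genes of all became 1177 with no filter and 472 at the cut-off of 1, and the 34 called partner and marker genes became 20 and 8. Other causes were not tested. Pseudocounts of 0.5 and 1, median-of-ratios scaling, voom weights and a filter on the mean each left 7 called channel genes.

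A replicate block in the fit gave 6 called channel genes (5 lower, 1 higher) and 1693 called genes in all, with *Kcnj4* lost at an adjusted p of 0.061. The deviations of same-numbered mice from their group means correlated at -0.18, -0.11 and -0.08, so no mouse correlated best with its own number. With so few mice per genotype these correlations cannot show which mice shared a litter or a batch. Genes with few reads limit what can be seen: *Kcnj15*, at under 1.2 CPM, had an interval of -0.95 to 0.59.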

Other observations

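The deposited RPKM values of the channel genes differed between mice far more than their reads did. Over the 37 channel genes above 0 in every mouse, the highest RPKM of a gene was 3.3 to 1191.8 times its lowest over the 6 mice, with a median of 44.6. The same ratio of CPM was 1.09 to 17.22, with a median of 1.49. *Kcnj9*, for example, spanned 235.5 times in RPKM and 1.45 times in CPM, and *Kcnk4* 122.1 and 2.30 times.

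Among the auxiliary subunits of voltage-gated potassium channels, 9 of 12 genes were tested, and 4 were lower and 1 higher in the *Mef2c* cKO. The called share was 55.6%, beside 13.7% of all tested genes, and the median log2FC of the 9 was -0.47. *Mef2d*, a relative of *Mef2c* that binds the same sites, was at 138.5 ± 2.27 CPM in controls and 177.1 ± 6.97 CPM in cKO mice (log2FC = 0.35, adjusted p = 0.0018 by limma), and *Mef2a* at 88.3 ± 4.01 and 98.6 ± 1.93 CPM (0.16, 0.096). The study, which tested its counts with DESeq, reports no significant change of either gene in the cKO. The value of *Mef2d* here, from limma on recovered reads, differs from that report. The reason was not tested.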
